A study of Homo sapiens with 8 samples.

Results

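Cells of NCI-H69, a long-established line from a human small cell lung carcinoma with neuroendocrine features, were taken 48 h after transfection with siRNA that was either non-targeting or directed against CSNK2B. CSNK2B encodes the beta, regulatory subunit of the protein kinase CK2 (casein kinase 2). Both arms received the same lipid reagent and were fixed with 1% formaldehyde for 10 min, and chromatin bound by RBBP4 was sequenced as paired 150 bp reads. The regions described here are the listed RBBP4 regions that lay within 3000 bp of an end of at least 2 different protein-coding genes, called shared-end regions below. Of 35154 listed RBBP4 regions, 1874 met this rule, after 6 regions in a segment of chromosome 8 were left out. They touched 3160 genes in 1625 different gene sets. Of these regions, 1702 lay near 2 genes, 160 near 3 and 12 near 4 or more. For comparison, 5955 regions lay near an end of 1 gene only and 27127 lay away from gene ends.

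Each arm had 1 RBBP4 library, so no difference has a replicate check and no test of the conditions was possible. Intervals below are exact (Clopper-Pearson, or the binomial interval of a ratio of counts) at 95% and cover counting error only. The arms were assigned to the columns of the table by name alone. A swap of the columns would turn every direction around. The total by which the deposited densities were scaled was inferred from the values as 1207945 reads in the knockdown library and 833181 in the control library. What this total counts could not be compared with the raw reads, and the read counts and folds below rest on it. The authors' own log2 fold changes were scaled differently and lie 0.58 higher (log2) than the densities show. The table lists only regions with an unadjusted p below 0.05, and all 1874 shared-end regions were named for the arm in which they were higher, so a region's direction largely restates the arm in which its peak was called. The level of CSNK2B itself was not measured in these libraries.

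RBBP4 is a histone-binding protein with a beta-propeller fold. It is a shared subunit of the Sin3 and NuRD deacetylase complexes, of the Polycomb complex that methylates histones, of the chromatin assembly factor that places histones on newly made DNA, and of the MuvB complex that controls cell-cycle genes. Human genes are unevenly spaced, and many pairs are arranged head to head, with start sites close together on opposite strands and a common CpG-rich stretch between them. Genes for DNA repair, mitochondria, chaperones and histones are well known for this arrangement.

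The stretch between a pair of such start sites is short enough to be read in full. For 276 head-to-head pairs at shared-end regions the starts lay 40 to 250 bp apart (median 141 bp). Of the 308 combinations of such a pair with a region, 301 were higher after knockdown, and in 193 of these the region covered both starts. The 7 stretches below are shown because they belong to pairs described later. They are the plus strand 5′ to 3′ from RefSeq, build GRCh38.p14, from the base after the start of the minus-strand gene to the base before the start of the plus-strand gene, and capitals mark the searched motifs on either strand. The motifs are named by the factors known to bind them. The factor NF-Y is known to bind the letters CCAAT, the SP family binds the letters GGGCGG, and the ETS family binds the letters CCGGAAG. The factor NRF1 is known for the letters CATGCGC, the factor YY1 for the letters AAGATGG, and the E2F family for the letters TTCCCGC. The CREB family binds the letters TGACGTC, the E-box is searched here as the letters CACGTG, and the TATA box as the letters TATAAA.
KARS1 and TERF2IP, chr16:75647666-75647772: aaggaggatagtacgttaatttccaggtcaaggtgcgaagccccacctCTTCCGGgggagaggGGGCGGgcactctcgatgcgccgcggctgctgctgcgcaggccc
TK1 and AFMID, chr17:78187205-78187361: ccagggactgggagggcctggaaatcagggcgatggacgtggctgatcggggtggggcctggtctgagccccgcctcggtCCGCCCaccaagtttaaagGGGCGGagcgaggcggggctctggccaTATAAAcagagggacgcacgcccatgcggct
GART and SON, chr21:33542893-33543037: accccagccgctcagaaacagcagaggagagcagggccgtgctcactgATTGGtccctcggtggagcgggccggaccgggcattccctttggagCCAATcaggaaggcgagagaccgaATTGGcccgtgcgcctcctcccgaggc
HEATR5B and GPATCH11, chr2:37084373-37084517: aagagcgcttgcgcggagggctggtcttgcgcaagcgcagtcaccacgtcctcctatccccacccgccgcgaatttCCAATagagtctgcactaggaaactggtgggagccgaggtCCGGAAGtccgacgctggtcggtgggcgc
HSPD1 and HSPE1, chr2:197500275-197500378: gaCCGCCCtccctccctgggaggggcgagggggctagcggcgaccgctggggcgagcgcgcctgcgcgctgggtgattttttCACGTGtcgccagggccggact
H2BC4 and H2AC6, chr6:26123927-26124171: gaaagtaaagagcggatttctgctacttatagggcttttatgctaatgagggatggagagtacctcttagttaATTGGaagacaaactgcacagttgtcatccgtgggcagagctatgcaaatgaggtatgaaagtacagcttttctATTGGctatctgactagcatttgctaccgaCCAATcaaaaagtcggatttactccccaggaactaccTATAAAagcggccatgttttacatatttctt
H2BC11 and H2AC11, chr6:27132796-27133042: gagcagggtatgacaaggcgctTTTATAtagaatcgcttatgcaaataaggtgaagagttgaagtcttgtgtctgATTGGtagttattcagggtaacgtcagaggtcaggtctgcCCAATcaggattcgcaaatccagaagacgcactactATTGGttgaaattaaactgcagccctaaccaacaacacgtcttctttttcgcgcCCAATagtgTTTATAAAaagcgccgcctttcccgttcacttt

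The stretch between KARS1 and TERF2IP held 1 ETS match and 1 SP match, and that between GART and SON held 3 CCAAT matches and none of the other motifs. The H2BC11 and H2AC11 stretch held 4 CCAAT matches and 3 TATA matches, of which the last 2 overlap on opposite strands. Only 5 CpG dinucleotides lay in the H2BC4 and H2AC6 stretch, against 15 between HEATR5B and GPATCH11. Among the 276 pairs, 162 held an SP match between their starts, 93 a CCAAT, 77 an ETS, 26 an E-box, 22 an NRF1, 21 an E2F, 15 a CREB, 10 a TATA and 3 a YY1 match. A match describes the letters only. It does not show that a factor was bound.

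Shared-end regions were almost all higher in the knockdown library. Of 1874, 1826 were higher and 48 lower, a share of 97.4% (96.6 to 98.1) against 68.6% of all listed regions. The share was 92.0% (91.3 to 92.7) at single ends and 61.5% away from ends. The authors' deposited table gave an adjusted p below 0.05 to 1467 of the higher regions, where 48.1% of all listed regions were so called, and to 16 of the lower ones, where 8.98% were. On log2(RPKM + 1), 1756 were at least 2-fold higher, against 65% of all listed regions, and 48 at least 2-fold lower, against 31.4%. Every lower region passed 2-fold, here and over all listed regions, so the lower count only repeats the direction. Higher regions were also listed at less than 2-fold on this scale. The median log2 ratio was 1.94 at shared ends, 1.85 at single ends, 1.33 away from ends and 1.50 over all listed regions. Among higher regions alone the medians were closer together, at 1.97, 1.92 and 1.83 in the same order of place.

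The reads behind each value were few. Higher shared-end regions held 7 to 203 reads in the knockdown library (median 22) and 0 to 38 in the control library (median 3), and 106 held none in the control. Lower shared-end regions held 0 to 8 reads after knockdown (median 2) and 8 to 24 in the control (median 12). The share of higher regions was largest at shared ends at each depth below 40 reads. Among regions with up to 11 reads over both libraries, 88.4% of 112 shared-end regions were higher, against 74.9% of 522 at single ends and 37.2% of 4363 away from ends. With 12 to 19 reads the shares were 95.6%, 85.5% and 43.7%. With 20 to 39 reads they were 98.6%, 97.6% and 80.7%. At that depth the intervals at shared ends (97.6 to 99.3) and single ends (96.9 to 98.2) overlap. From 40 to 79 reads every shared-end and single-end region was higher, as were 99.1% of those away from ends, and from 80 reads all were higher in every class. Shared-end regions were also wider and deeper, with a median of 536.5 bp and 25 reads against 491 bp and 22 reads at single ends and 411 bp and 18 reads away from ends. Whether width or depth has a part in the direction beyond these strata was not tested.

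**Figure D1:**
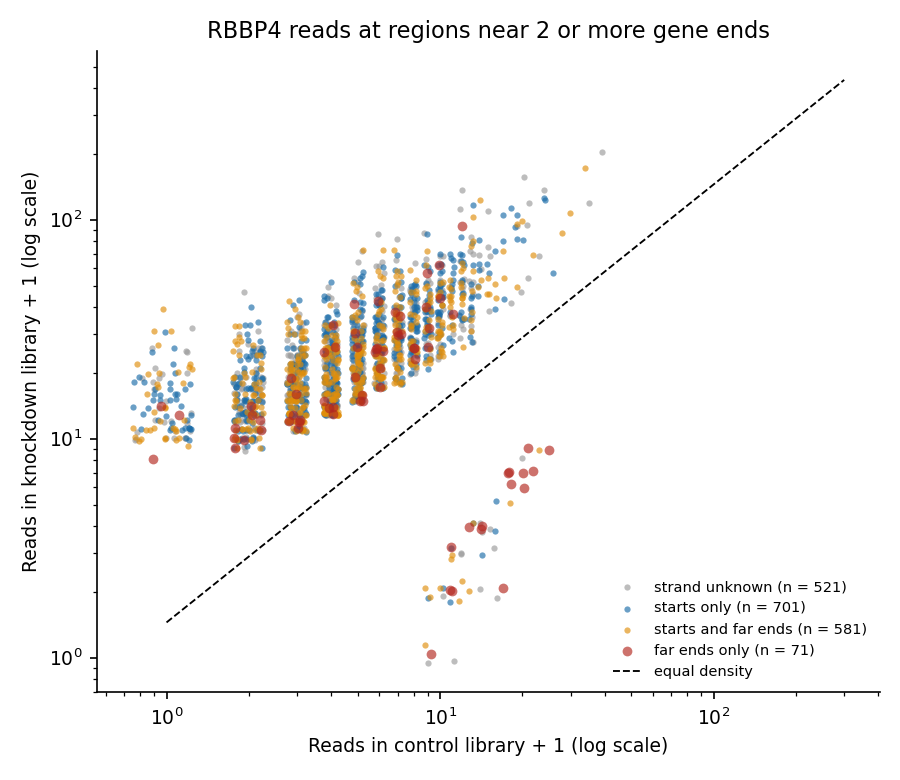
Reads in the control library (x axis) and the knockdown library (y axis), each plus 1 on a log scale, for the 1874 shared-end RBBP4 regions, coloured by the kind of gene end nearby, with a small random shift in both directions so that points do not hide each other. The dashed line marks equal density after scaling. The 48 lower regions form a separate group below the line at 8 or more control reads, and the gap around the line is where regions did not reach the listing threshold.

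The share that was higher differed more by the kind of end than by the number of genes. RefSeq strand was known for every gene at 1353 shared-end regions, so that a start (the 5′ end) could be told from a far end (the 3′ end). Only starts lay near 701 regions, of which 693 were higher (98.9%). Starts together with far ends lay near 581, of which 569 were higher (97.9%). Only far ends lay near 71, of which 55 were higher (77.5%, 66.0 to 86.5). At single ends the shares were 96.8% of 3970 for a start and 67.5% (63.9 to 70.9) of 719 for a far end. The intervals of the far-end shares overlap between shared and single ends. Among regions with at least 20 reads their order turned, with 79.5% of 39 higher at shared far ends and 88.3% of 324 at single far ends. A further 521 shared-end regions had a gene of unknown strand, and 97.7% of them were higher.

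**Figure D2:**
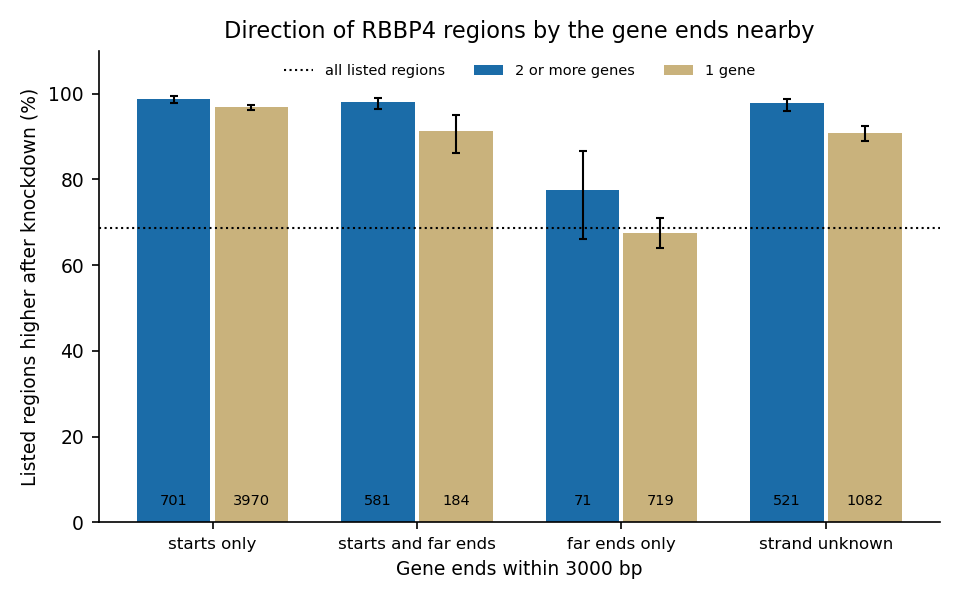
Share of listed RBBP4 regions that were higher after knockdown (y axis, %) by the kind of gene ends within 3000 bp (x axis), for regions near 2 or more genes and near 1 gene, with exact 95% binomial intervals and the number of regions in each bar. The bars near starts lie above 90%, those near far ends only at 77.5% and 67.5%, beside the dotted line at 68.6% for all listed regions.

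Higher shared-end regions lay on the start sites, and lower ones did not. Of 1317 higher regions with known strand, 847 overlapped a start (64.3%, 61.7 to 66.9) and 1058 lay within 500 bp of one. Of 36 lower regions, 1 overlapped a start (2.78%), 2 lay within 500 bp, and the median distance was 2805 bp. At single ends 41.1% of 4496 higher and 1.59% of 377 lower regions overlapped a start. Among regions near starts only, 77.5% of 693 higher shared-end regions overlapped one, against 46.4% of 3843 at single ends. A shared-end region had at least 2 starts or ends to meet, which can raise this share by construction. Where both a start and a far end were near, the start was the nearer at 428 of 569 higher regions and the far end at 106, with 35 at equal distance. Among the 12 lower regions of this kind the far end was nearer at 8 and the start at 4.

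**Figure D3:**
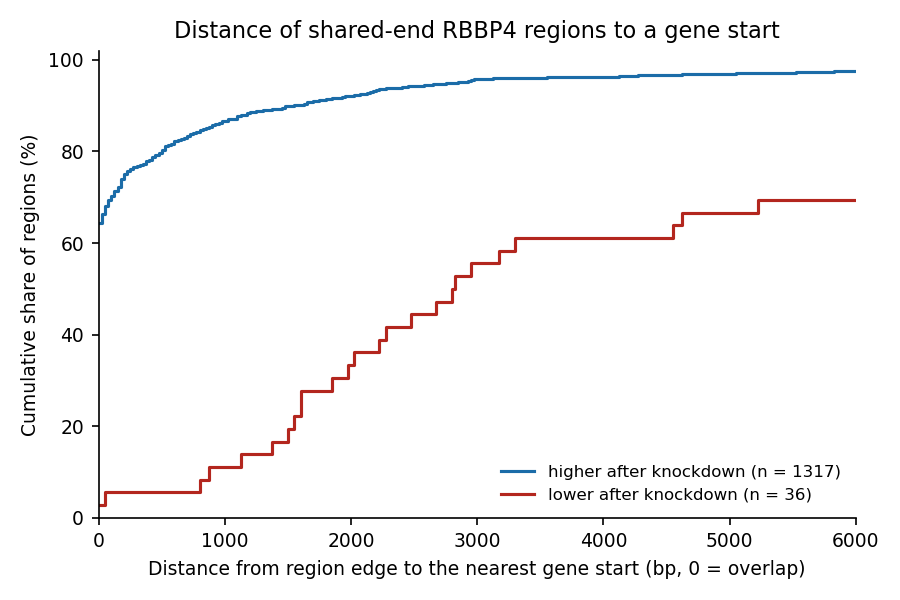
Cumulative share of shared-end RBBP4 regions (y axis, %) by the distance from the region's edge to the nearest gene start (x axis, bp, 0 for an overlap), for 1317 higher and 36 lower regions of known strand. The curve of higher regions starts at 64.3% and that of lower regions at 2.78%.

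Counted from the genes instead of the regions, head-to-head pairs had a region most often. Of 814 head-to-head pairs whose starts lay under 1000 bp apart, 472 had a higher shared-end region (58.0%, 54.5 to 61.4) and 8 a lower one. Of 420 head-to-tail pairs, 141 had a higher region (33.6%, 29.1 to 38.3) and 1 a lower one. Of 368 tail-to-tail pairs, 32 had a higher region (8.70%, 6.02 to 12.1) and 4 a lower one. A lone start, with no other gene end within 6000 bp, had a higher region at 2764 of 8645 sites (32.0%, 31.0 to 33.0), and a lone far end at 311 of 8293 (3.75%). A head-to-head site holds 2 starts and a lone start 1, so these shares are not per start. Within head-to-head pairs the share was 48.1% of 208 with starts under 100 bp apart and 58.5% of 426 at 100 to 299 bp. It was 68.3% of 180 at 300 to 999 bp. A region had to lie within 3000 bp of both starts, so the window searched narrowed as the gap grew.

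**Figure D4:**
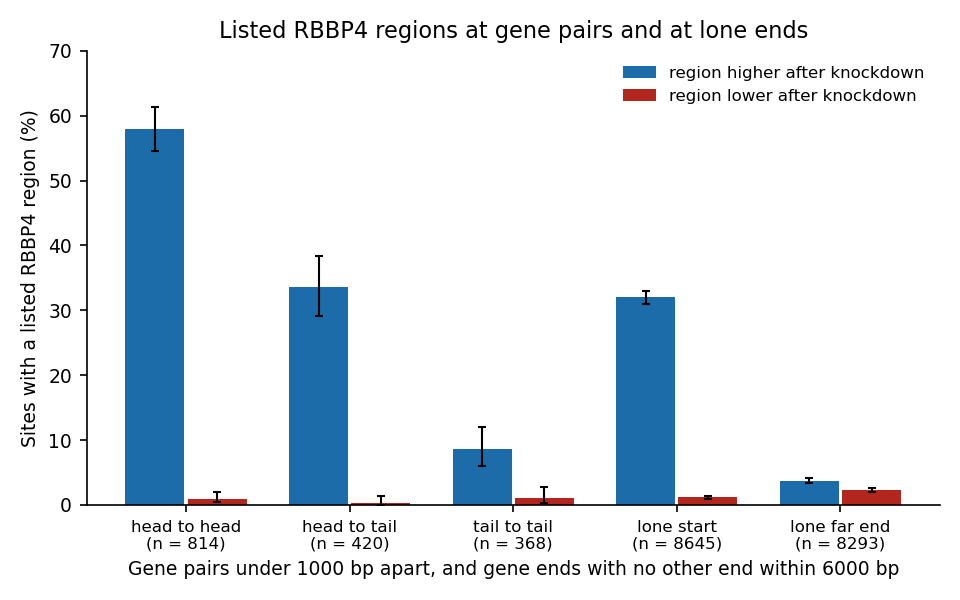
Share of gene pairs under 1000 bp apart, and of lone gene ends, that had a listed RBBP4 region (y axis, %), by orientation (x axis, with the number of sites), in blue for a region higher after knockdown and in red for a lower one, with exact 95% binomial intervals. Head-to-head pairs stand at 58.0%, head-to-tail pairs and lone starts near 33.6% and 32.0%, and sites made of far ends below 9%.

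The pairs best known for divergent transcription were looked up by name. Of 52 genes on a list of such pairs, 30 had a shared-end region, at 17 regions that were all higher, and 25 genes had an adjusted call (p below 0.05 after adjustment) by the authors' deposited table. Over all 19986 protein-coding genes, 15.8% had a shared-end region and 13.1% an adjusted call in the higher direction. Genes listed for a close neighbour meet the distance rule more often by construction, so these shares are not a like comparison. The listed genes had a region in 57.7% of cases, and 58.0% of all head-to-head pairs above had a higher one. Some listed genes met the rule through another neighbour, such as WRAP53 beside EFNB3. NPAT, a coactivator of histone gene transcription, and ATM, the kinase that signals DNA double-strand breaks, had 33 reads after knockdown against 1 in the control across chr11:108222555-108223266, a 22.8-fold difference (3.81 to 926). KARS1, the lysyl-tRNA synthetase, and TERF2IP, a telomere protein, had 20 and 1 reads, 13.8-fold (2.21 to 572). ZAR1L and BRCA2, a homologous recombination gene, had 23 and 2 reads, 7.93-fold (1.96 to 69.4). TMEM258 and FEN1, the flap endonuclease of lagging-strand synthesis, had 35 and 4 reads, 6.04-fold (2.16 to 23.4). All of these regions overlapped a start of the pair, and each interval is wide where the control count is near 0.

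Ratios at other known pairs included smaller ones. HADHA and HADHB, the 2 subunits of the mitochondrial trifunctional protein, had 22 reads after knockdown against 4 in the control, 3.79-fold (1.29 to 15.1). TK1, the cytosolic thymidine kinase, and AFMID had 27 and 6 reads, 3.10-fold (1.26 to 9.19), and UFD1 and CDC45, a replication helicase subunit, had 48 and 12 reads, 2.76-fold (1.44 to 5.71). GART, a purine synthesis enzyme, and SON, a splicing cofactor, had 14 and 1 reads, 9.66-fold (1.47 to 408). At HSPD1 and HSPE1, the mitochondrial chaperonin genes, 13 and 3 reads gave 2.99-fold (0.821 to 16.4), and the authors' deposited table has an adjusted p of 0.089. At COL4A6 and COL4A5, collagen chains of basement membranes, 14 and 4 reads gave 2.41-fold (0.758 to 10.1), and by the authors' deposited table the adjusted p was 0.12. The last 2 intervals include 1.

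Histone genes, which lie in dense clusters of short genes on chromosome 6, had 27 shared-end regions, 22 of them on that chromosome. All 27 were higher, as were 97.4% of all shared-end regions. The 27 regions touched 40 of 73 core and linker histone genes (54.8%), and 34 genes (46.6%) had an adjusted call by the authors' deposited table. Over all protein-coding genes these shares were 15.8% and 13.1%, but close spacing can raise a list's share through the distance rule. Reads ranged from 12 to 85 after knockdown (median 25) and from 1 to 11 in the control (median 4). The ranges did not overlap, but each region was listed only for a difference between these same counts. H2BC4 and H2AC6 had 57 and 5 reads over chr6:26122570-26123426, 7.86-fold (3.18 to 25.1), and H2BC11 and H2AC11 had 49 and 6 reads over chr6:27131549-27132453, 5.63-fold (2.41 to 16.1). H2AC16 and H1-5 had 62 and 11 reads, 3.89-fold (2.03 to 8.19). Of the 27 histone regions, 10 overlapped a far end of a gene of known strand and 8 a start. The regions at both pairs printed above lay beside the stretch between the starts, not over it. Histone genes of a class are close copies of each other, and how reads mapping to several places were treated is not given in the sources used here.

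For mitochondrial genes, a shared-end region lay at 30 of 76 genes of mitochondrial ribosomal proteins (39.5%), all higher. An adjusted call by the authors' deposited table stood at 26 of the 76 (34.2%). Respiratory chain genes had a region at 29 of 93 (31.2%), all higher, and 23 had an adjusted call (24.7%). Over all protein-coding genes 15.8% had a region and 13.1% an adjusted higher call, and 97.4% of all shared-end regions were higher. APBA3 and MRPL54 had 85 reads after knockdown against 8 in the control, 7.33-fold (3.56 to 17.5). ABHD8 and MRPL34 had 71 and 8 reads, 6.12-fold (2.94 to 14.7), in the deeper of its regions. BAZ2A and ATP5F1B, the catalytic beta subunit of ATP synthase, had 56 and 5 reads, 7.73-fold (3.12 to 24.7). COX15, which makes the haem of cytochrome oxidase, and CUTC had 34 and 11 reads, 2.13-fold (1.05 to 4.66), the smallest of these 4 ratios. Cytosolic ribosomal protein genes had a region at 22 of 86, all with a higher one, and 1 of them, RPS27A, also had a lower one. RPL23A with TLCD1 and NEK8 had 109 and 14 reads, 5.37-fold (3.07 to 10.1).

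Chaperone genes had a region at 22 of 66 (33.3%), against 15.8% of all protein-coding genes. All were higher, as were 97.4% of all shared-end regions. CCT3, a chaperonin subunit, and TSACC had 58 reads after knockdown against 6 in the control, 6.67-fold (2.88 to 18.9). Splicing genes had a region at 11 of 33 (33.3%), 10 higher and 1 lower. GUCD1 and SNRPD3, a core spliceosomal protein, had 51 and 3 reads, 11.7-fold (3.79 to 58.7), and SRSF2, a splicing regulator, with MFSD11 had 51 and 4 reads, 8.79-fold (3.23 to 33.5). The lower one was SNRPA1 beside SELENOS, with 2 reads after knockdown and 10 in the control. Genes of tRNA synthetases had a region at 11 of 34 (32.4%), 10 with a higher and 2 with a lower one, CARS2 and TARS2. Proteasome genes had a region at 7 of 39 (17.9%), all higher, which is near the 15.8% of all protein-coding genes. HPD and PSMD9 had 30 reads after knockdown against none in the control, which is at least 6.90-fold higher with a floor of 3 reads in place of 0 and the knockdown count taken as fixed. The lower exact limit was 5.27.

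Among genes of DNA replication and repair 15 of 63 had a region (23.8%), all higher. Among cell-cycle genes 35 of 137 had one (25.5%), 34 higher and 1 lower (CDC14B). Over all protein-coding genes 15.8% had a region, and 97.4% of all shared-end regions were higher. MCM7, a subunit of the replicative helicase, and AP4M1 had 112 reads after knockdown against 17 in the control, 4.54-fold (2.71 to 8.08). CDC6, which loads that helicase, and RARA, a retinoic acid receptor, had 122 and 13 reads, 6.47-fold (3.65 to 12.5). ZFYVE26 and RAD51B, a recombinase relative, had 40 and 5 reads, 5.52-fold (2.18 to 17.9). BRD8 and KIF20A, a mitotic kinesin, had 79 and 16 reads, 3.41-fold (1.97 to 6.25). SHC1 and CKS1B, a cofactor of cyclin-dependent kinases, had 116 and 12 reads across chr1:154973558-154975703, 6.67-fold (3.67 to 13.3). This last region was chosen for its small p after values were seen.

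Of 28 genes of complexes that contain RBBP4, 8 had a shared-end region (28.6%), all higher: CHAF1A, CHD3, CHD4, LIN37, MTA1, MTA2, RBBP4 and SIN3A. Over all protein-coding genes 15.8% had a region, and 97.4% of all shared-end regions were higher. MTA1, a NuRD subunit, with CRIP2 had 71 reads after knockdown against 16 in the control, 3.06-fold (1.76 to 5.64). NAA38 and CHD3, a NuRD remodelling ATPase, had 35 and 3 reads, 8.05-fold (2.54 to 40.9). MAN2C1 and SIN3A, the scaffold of the Sin3 complex, had 30 and 4 reads, 5.17-fold (1.82 to 20.2). Smaller values stood at NOP2 and CHD4, with 25 and 11 reads (1.57-fold, 0.744 to 3.53), and at SH3GL1 and CHAF1A, with 18 and 6 reads (2.07-fold, 0.787 to 6.37). Both of those intervals include 1. No shared-end region lay at any of the 4 casein kinase 2 genes. Of 18 neuroendocrine genes, 2 had one (11.1%): SEZ6 beside PHF12, with 60 and 5 reads, and ENO2 beside ATN1, with 46 and 7 reads in the deeper of its regions.

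Gene families with their own clusters differed widely. The region with the most reads lay across HOXC4, HOXC5 and HOXC6, with 203 reads after knockdown and 38 in the control, 3.68-fold (2.60 to 5.36). HOXB2 and HOXB3 had 111 and 11 reads, 6.96-fold (3.74 to 14.3), and 11 of 39 homeobox cluster genes (28.2%) had a region, all higher. All 22 protocadherin genes with a region shared a single one, at the common far end of the gamma cluster beside DIAPH1 (chr5:141512931-141514722), with 92 and 18 reads, 3.53-fold (2.11 to 6.21). It counts as 1 region, not as 22 observations. Zinc finger genes had a region at 51 of 509 (10.0%), all with a higher one and 2 also with a lower one. Solute carriers had one at 50 of 379 (13.2%), 47 higher and 3 lower. Over all protein-coding genes 15.8% had a region. Genes of keratins and keratin-associated proteins, taken as 1 list, had 1 higher region, between KRT15 and KRT19 with 25 and 5 reads. It touched 2 of 149 genes. Olfactory receptor genes, which are expressed mainly in sensory neurons of the nose, had 1 region, which touched 2 of 392 genes and was lower: OR4E2 and OR4E1, with 1 read after knockdown and 10 in the control.

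**Figure D5:**
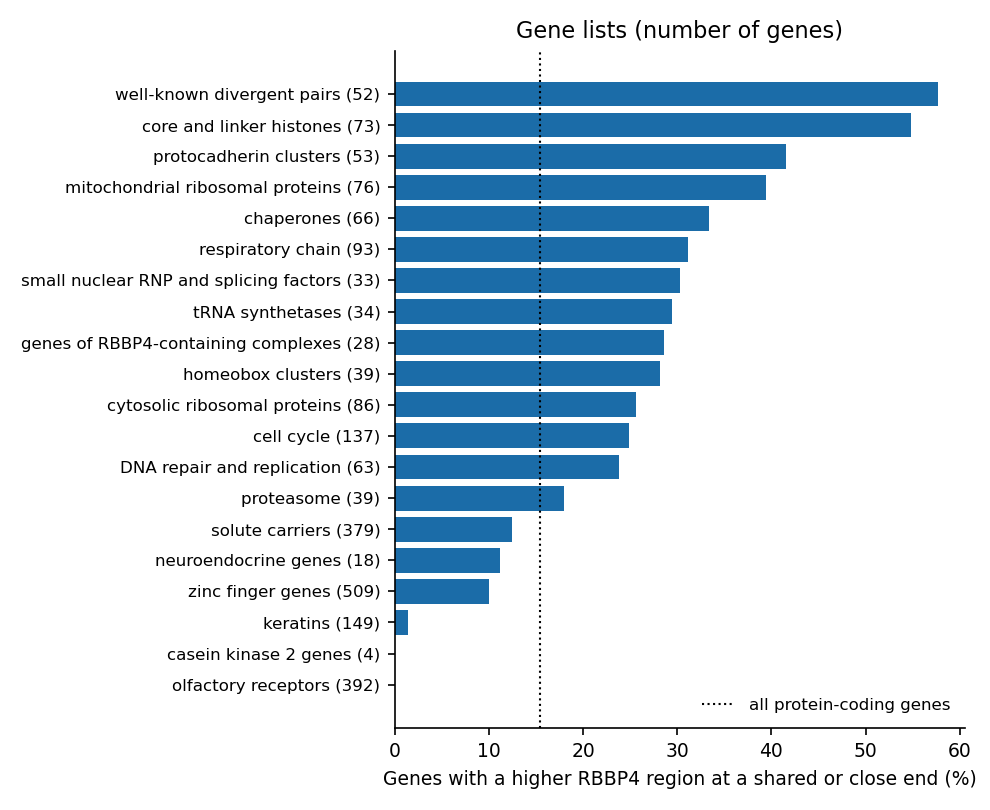
Share of the genes of each list that had a shared-end RBBP4 region higher after knockdown (x axis, %), by list (y axis, with the number of genes), with a dotted line for all protein-coding genes. Divergent pairs and histones stand above 50%, and olfactory receptor and casein kinase 2 genes at 0. The keratin list, which includes keratin-associated proteins, stands at 1.34%. The protocadherin bar rests on 1 region, and a list of closely spaced genes can meet the distance rule more often than one of widely spaced genes.

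The deepest members had ratios between 2.39 and 8.47, and the intervals of those given here lay above 1. HOOK2 and JUNB, an AP-1 family transcription factor, had 171 reads after knockdown against 33 in the control, 3.57-fold (2.45 to 5.36). GPR108 and TRIP10 had 135 and 11 reads, 8.47-fold (4.58 to 17.4), and the smallest adjusted p of any shared-end region by the authors' deposited table, 1.0e-15. BEST1 and FTH1, the ferritin heavy chain gene, had 118 and 20 reads, 4.07-fold (2.52 to 6.90). COPZ1 and GPR84 had 118 and 34 reads, 2.39-fold (1.62 to 3.62), the smallest ratio among the 10 deepest regions. Among regions with any control read, the largest count ratios came from single control reads. Regions with no control read took the floor of 3 reads, which lowers their ratios, so they cannot be ranked against these. By the authors' log2 fold change, HPD and PSMD9, with no control read, stood above each gene set named next. TMEM143 and SYNGR4 had 46 and 1 reads, 31.7-fold (5.42 to 1280), ALG2 and SEC61B, both of the endoplasmic reticulum, had 39 and 1, 26.9-fold (4.55 to 1089), and LMNB2, a nuclear lamin gene, with TMPRSS9 and TIMM13 had 32 and 1, 22.1-fold (3.69 to 899). Their lower limits fall in the range of the deepest members.

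The 48 lower regions were a small and shallow group, with a median width of 376.5 bp and a median of 15 reads over both libraries. Their median log2 ratio was -2.67. Over all 10964 lower listed regions these medians were 371 bp, 13 reads and -2.76, so such values are not particular to shared ends. The clearest of the 48 by p was at TIMM23 and NCOA4, a mitochondrial import subunit and a ferritin autophagy receptor whose far ends meet. This region had 1 read after knockdown and 16 in the control, 23.2-fold lower (3.60 to 973). The authors' deposited table gives it an adjusted p of 0.0047. TIMM23 has a near-identical copy in the genome, so its reads may be divided. PRPF38A and TUT4 had 1 and 15 reads, 21.7-fold lower (3.35 to 915). The best covered was DCAF6 and GPR161, with 8 and 24 reads, 4.35-fold lower (1.89 to 11.2), which the authors' deposited table gives an adjusted p of 0.057. ECT2L and REPS1 had 6 and 21 reads, 5.07-fold lower (1.98 to 15.4), and UGT2A1 and UGT2A2, glucuronosyltransferase genes that share exons, had 5 and 19 reads, 5.51-fold lower (1.99 to 18.9). All 5 except PRPF38A and TUT4, of unknown strand, were near far ends only. RHNO1 and TULP3 had no read after knockdown against 10 in the control, which is at least 4.83-fold lower with a floor of 3 reads in place of 0 and the control count taken as fixed, and the lower exact limit was 3.25. The 1 lower region over a start was at KAT14 and PET117, with 2 and 13 reads.

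At 6 gene sets a higher and a lower region lay near each other. In each of the 6 the higher region overlapped a start, and the lower one lay 1102 to 2662 bp from the nearest start. At HEATR5B and GPATCH11 the region over both starts (chr2:37083934-37084619) had 38 reads after knockdown against 15 in the control, 1.75-fold (0.939 to 3.42), and a region 1356 bp away (chr2:37085874-37086248) had 3 and 15. STEAP2 and CFAP69 had 17 and 2 reads over the start and 1 and 11 at 1102 bp. NOP14 and GRK4 had 30 and 5 reads over the start and 3 and 12 at 1528 bp. CLHC1 and RPS27A had 27 and 5, with 4 and 15 at 2024 bp. ZSCAN32 and ZNF174 had 21 and 2, with 1 and 8 at 2471 bp. CAPN14 and EHD3 had 16 and 2, with 2 and 10 at 2662 bp. In all 6 sets the control reads were more numerous in the lower region or, at HEATR5B, equal in both. Regions were listed for a difference between these same counts, so this can follow from the listing.

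Few shared-end regions met a listed P300 region. P300, the acetyltransferase encoded by EP300, was profiled in the same arms, with 1 library each and a batch label that repeats the antibody's name, and 20496 regions were listed. An overlap of at least 1 bp was found for 31 shared-end regions, which is 1.65% (1.13 to 2.34) of them and 0.151% of the P300 regions. With an overlap of at least 50% of the shorter region 20 were left, or 1.07%. All 31 were higher for RBBP4, as were 97.4% of all shared-end regions. P300 was higher at 13 and lower at 18 of them, where 65.3% of all listed P300 regions were lower. At TMEM258 and FEN1 the P300 reads were 7 after knockdown and 18 in the control, and at TSC1 and GFI1B, with 37 and 3 RBBP4 reads, they were 4 and 17. At ZGRF1 and LARP7, with 48 and 10 RBBP4 reads, they were 14 and 0, and at PMPCB, DNAJC2 and PSMC2, with 20 and 2 RBBP4 reads, they were 21 and 6. The smallest P300 adjusted p that the authors' deposited table holds was 0.260, so no single P300 direction passed adjustment. At single ends 1.02% of regions (0.784 to 1.31) met a P300 region. The share over all listed RBBP4 regions was not computed.

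The promoters were compared by their letters, without a test. In windows of 300 bases, 250 before to 50 after each start, the ETS letters CCGGAAG stood on either strand in 27.6% of 1194 genes at higher shared-end regions with starts on both strands, against 14.2% of all 15842 promoters and 17.2% of 3248 genes at higher single-end starts. Head-to-head genes under 1000 bp apart held them in 31.3% of 931 cases with a higher region and 25.5% of 666 with no listed region, so these letters were also more frequent than among all promoters where no region was listed. NRF1 letters stood in 10.2% at shared ends, 5.9% of all promoters, 9.1% at single-end starts, and 11.7% and 7.4% in the head-to-head genes with and without a region. TATAAA stood in 3.6% against 9.7% of all promoters and 5.9% at single-end starts, and in 4.2% of head-to-head genes with and without a region. GGGCGG stood in 70.6% against 58.3% of all promoters, but also in 69.7% at single-end starts and 71.8% of head-to-head genes with no region. CCAAT stood in 39.9% against 36.4% of all promoters, 36.1% at single-end starts and 41.3% of head-to-head genes with no region, and CACGTG in 12.4% against 8.8%, 9.9% and 10.2% in the same order. The 2 genes of a close pair share letters, since their windows overlap, and are not independent.

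Regions on either side of the distance limit were set side by side. Regions whose second gene end lay just inside, within 250 bp of the limit of 3000 bp, numbered 95. Of these, 86 were higher (90.5%, 82.8 to 95.6), and the median log2 ratio was 1.89. Regions whose second end lay within 250 bp outside the limit numbered 84, with 81 higher (96.4%, 89.9 to 99.3) and a median of 1.98. The intervals overlap, and groups of this size cannot show whether there is a step at the limit. Genes nested on 1 strand, where annotation gives more than one gene to a locus, made up 63 shared-end regions, 59 of them higher.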

How the data were processed

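RBBP4 and P300 ChIP-seq of NCI-H69 cells was used, 1 library per antibody and arm, with inputs not used here. The submitters' processing notes list, in no stated role, Bowtie2 2.4.5 and Trim Galore 0.6.7, then DiffBind 3.4.11 and MACS2 2.2.7.1, then ChIPseeker 1.28.3 and FastQC, and the build GRCh38. Each table gives RPKM per library, the authors' values per the file headers. Its log2 fold change is the authors' own, per the file headers. Its p-value and adjusted p-value are also the authors', per the file headers, and only p-values up to 0.0493 are listed, out of 95329 regions tested as inferred from the adjustment.

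Reads were recovered as RPKM times width times the scaling total. They came out whole, within 0.01 of a read, for 97.0% of shared-end regions. For the other 57 a width was solved. Recovery was tested on simulated data. Direction follows the authors' log2 fold change, and sizes use log2(RPKM + 1), which understates low regions, or read folds with a floor of 3. Gene ends, strands and promoters came from RefSeq GRCh38.p14. Strand was read from the promoter table, which covered 15843 of 20037 genes. Named regions were members of the 20 gene lists (at most 4 of each by reads, all for divergent pairs), the 10 with the largest fold of at least 20 reads per direction, the 10 deepest and those near 4 or more genes. Not every named region is reported here. Regions of smallest p, those in both directions and those overlapping P300 were added after values were seen. Members and lists were chosen with earlier results of these data known. Calculations used Python 3.11.15, pandas 2.3.3, NumPy 2.4.6, SciPy 1.17.1 and matplotlib 3.10.9.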

Additional observations from a re-analysis of the deposited data

How the results depend on the processing

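With gene ends within 1000 bp, 98.9% of regions were higher, with 1137 past 2-fold upwards and 13 past 2-fold downwards. With at least 20 reads, 99.1% were higher, with 1138 past 2-fold upwards and 11 downwards, and the median log2 ratio was 1.86. In both subsets every lower region was past 2-fold, so the downward counts repeat the direction. Of regions that the authors' deposited table calls after adjustment, 98.9% were higher. A fold of 4 left 888 higher regions and 42 lower. The median log2 ratio was 1.57 with a pseudocount of 5 and 2.59 by the authors' log2 fold change. An overlap of at least 50% of the shorter region left 20 regions that met a P300 region. Subsets, pseudocounts and fold cut-offs cannot turn the direction of a region, so these settings do not test the directions. Other pseudocounts, the direction from RPKM, and leaving out genes nested on 1 strand (added after the data were seen) moved the share and the counts by less than these. No paired analysis was possible because each antibody and arm had 1 library. For the same reason no library could be left out. Depth limits single regions most: the median shared-end region rested on 25 reads, so ratios against 0 to 3 control reads are known only to within wide limits.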

Other observations

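Shared-end regions were unevenly spread over chromosomes. Chromosome 19 held 230 of them (12.3%), with 7.24% of the genes and 3.18% of all listed RBBP4 regions, and none of the 230 was lower. Only 2.56% of all shared-end regions were lower, and chromosomes 3 (80 regions) and 5 (66 regions) were among others with none. Chromosome 11 held 8.32% with 6.49% of the genes, and chromosome 17 held 8.00% with 5.83%. The X chromosome held 21 (1.12%) with 4.23% of the genes. Chromosome 18 held 14.

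Most gene sets had a single region, 1406 of 1625, and 219 had 2 or more. The most regions at 1 set was 4, found at LOC124909474 and FAM43A, at CFL1 and MUS81, and at PITPNM1 and CDK2AP2. At XAB2, STXBP2, PET100 and PCP2, a locus of 4 close genes, 33 reads after knockdown and 3 in the control gave 7.59-fold (2.38 to 38.7). At MKKS, SLX4IP and 2 further gene models, 44 and 6 reads gave 5.06-fold (2.15 to 14.5). CBX5, the gene of a heterochromatin protein, and HNRNPA1, a splicing regulator, had 81 and 6 reads, 9.31-fold (4.10 to 26.1), and TBCC and BICRAL had 72 and 4 reads, 12.4-fold (4.64 to 46.8).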
